A study of Mus musculus with 18 samples.

Results

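The comparison is between bisulfite-treated RNA labelled OGD/R 1.5 h and bisulfite-treated RNA labelled as untreated control. Members were chosen by their labels, 3 libraries of each group, which are 6 of the 18 samples of the series and 6 of its 9 bisulfite libraries. All labels name C57BL/6 mice as the source and neurons of the cerebral cortex at embryonic day 18 as the cells. OGD/R stands for oxygen and glucose deprivation, here for 1.5 h in glucose-free medium under a low-oxygen gas mixture, followed by reoxygenation for 24 h with glucose returned, and the controls received neither step. The stated fractions of the gas mixture add up to more than the whole, so the oxygen level is unknown. A further bisulfite group was deprived for 3 h, and the paper does not report on the 1.5 h group. Ribosomal RNA was depleted before bisulfite treatment, and the 9 mock libraries, made without bisulfite, were not analysed here.

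Cytosine methylation at carbon 5 (m5C) is a mark of transfer RNA, ribosomal RNA and other noncoding RNA that is also found in mRNA, where it is written by methyltransferases such as Nsun2. Readers such as Ybx1 and Alyref bind it, and Tet enzymes can oxidise it. Bisulfite turns unmethylated cytosine into uracil and leaves m5C as cytosine, so that a cytosine which stays unconverted in enough reads is listed as a site. Each library has a list of such sites, each scored with 10 times the value of the site caller, without its decimals and with a ceiling of 1000. The score rises with coverage and with methylation level together, and neither can be read from it. A site that is absent from a list fell short of the limits on coverage or level, which is not the same as absence of the RNA or of the mark.

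The labelled cell type was checked against markers. Of 20 neuron markers, among them Tubb3, Map2 and Snap25, 0 carried a site in any of the 6 libraries. Of 32 markers of intestinal epithelium, 28 had at least 1 site among the control libraries and 26 among the OGD/R 1.5 h libraries. The sites in these intestinal genes numbered 158, 164 and 150 in the control libraries and 98, 93 and 102 in the OGD/R 1.5 h libraries, with Apoa1 and Apoa4 as the genes with most sites in control and Fcgbp as that with most in OGD/R 1.5 h. The data thus go against the label of cortical neurons in both groups. Lists for astrocytes, oligodendrocytes, hepatocytes and lymphocytes had at most 1 gene with a site in a group, and markers of microglia, erythroid cells and neutrophils had 0. Of 12 markers of smooth muscle and fibroblasts, 5 carried sites in the control group and 4 after OGD/R 1.5 h, with 16, 14 and 9 against 10, 10 and 8 sites, which overlapped, and Myh11 and Acta2 among them. The part of a different mix of cells in the differences between the groups was not tested, and fewer cells of a type and less RNA per cell cannot be told apart.

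The study speaks of replicates of a sequencing pool for the libraries it reports on and gives no such description for OGD/R 1.5 h. No source used here names separate cultures or animals for the libraries of a group, and no coverage was held for OGD/R 1.5 h to set them against sampling noise, so the 3 libraries were counted as 1 sample. The values given as mean ± SD over 3 libraries therefore show the spread between sequencing libraries, no test was run and no p-value is given. Groups that do not overlap are reported as such, and counts of called genes and sites are set beside the share of all genes or sites called by the same rule.

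Sequences around 9 sites with large single-site differences are shown first. Each sequence is the mRNA strand of mm10 (GRCm38), 21 nt long, with the listed cytosine in capitals. The first 4 sites were listed in all 6 libraries, with a higher score in OGD/R 1.5 h for Upf2 (chr2:5957656-5957676, + strand, coding sequence) and Adh1 (chr3:138277689-138277709, + strand, start codon region), and with a lower score for Ppp1r12a (chr10:108241179-108241199, + strand, coding sequence) and Hypk (chr2:121457137-121457157, + strand, start codon region). The other 5 sat at the score cap in every library of 1 group and were absent from the other. They were gained in Canx (chr11:50297298-50297318, − strand, coding sequence), Calr (chr8:84842700-84842720, − strand, stop codon region) and Rabggtb (chr3:153912124-153912144, − strand, start codon region, also inside the small nucleolar RNA Snord45c) and lost in Apoa1 (chr9:46230367-46230387, + strand, stop codon region) and Ezr (chr17:6742439-6742459, − strand, coding sequence). These 5 were chosen after their values were seen.
Upf2: aaagaagagaCtggaagaaga
Adh1: tcctgcctgcCtgcagcaagg
Ppp1r12a: catgagaaggCtgatgaggag
Hypk: ccgagggagaCgtggagttgg
Canx: aagagaagaaCaagagggatg
Calr: aagatgaggaCgaagaagatg
Rabggtb: tagaattactCtgagacctga
Apoa1: atcgacaaggCcagcgagact
Ezr: aggcgagagaCggtggagaga

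Fewer mRNA sites in fewer genes were listed after 1.5 h of deprivation. The control libraries held 3886, 4146 and 3800 mRNA sites and the OGD/R 1.5 h libraries 3508, 3556 and 3749. All OGD/R 1.5 h libraries lay below all control libraries, with 3604 ± 128 against 3944 ± 180.1 sites (SD, n = 3 libraries) and a log2 ratio of -0.13. These sites lay in 1264, 1264 and 1270 genes in OGD/R 1.5 h and in 1337, 1398 and 1318 genes in control, which gave a log2 ratio of -0.094 and no overlap. Genes with a single site were more frequent after deprivation, with 46.2, 47.2 and 45.3% against 41.8, 41.8 and 41.3% of the genes with a site. The lower number was seen in sites that lie close together and not in isolated ones. Isolated sites, those without a listed neighbour within 10 nt, accounted for 53.3 ± 0.373% of mRNA sites in control and for 60.4 ± 0.640% after OGD/R 1.5 h, and over them alone the log2 ratio was 0.051. For sites it was -0.26 with a score of at least 10 and -0.40 with sites in at least 2 libraries of a group. For genes these settings gave -0.15 and -0.20, and isolated sites gave -0.019. With the same number of sites per library, taken by highest score, the ratio was -0.030 for genes, while that for sites, -0.0035, is near 0 by construction. Whether neighbouring sites are methylated or incompletely converted cannot be told apart here.

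Outside mRNA the classes of sites moved in different directions. The share of all sites outside mRNA was 34.9 ± 1.08% for control libraries and 35.8 ± 2.08% for OGD/R 1.5 h libraries, which overlapped. Without OGD/R 1.5 h replicate 2 the difference was -0.267 points, with isolated sites it was -3.22 points, with a score of at least 10 it was 4.58 points and with sites in at least 2 libraries 4.73 points. Sites in exons of noncoding transcripts numbered 1108, 1144 and 1158 in control and 1186, 1271 and 1167 in OGD/R 1.5 h, so that every OGD/R 1.5 h library was above every control library. Sites in introns or in predicted exons of coding genes went from 163, 175 and 157 to 82, 97 and 106. This was a log2 ratio of -0.80 without overlap, the largest change of the classes compared. Intergenic sites went from 615, 611 and 596 to 501, 547 and 501, again without overlap, and antisense sites overlapped.

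**Figure D1:**
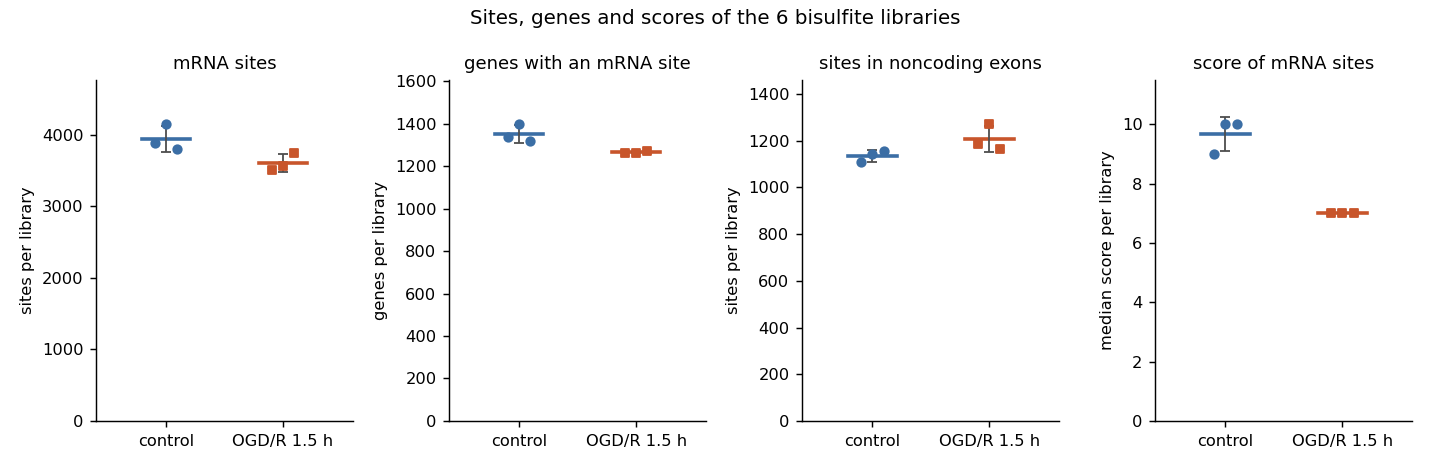
Sites, genes and scores of the 6 libraries, with 1 point per library, a bar at the mean of each group and an error bar of 1 SD over 3 libraries. The OGD/R 1.5 h libraries lie below the control libraries in mRNA sites (3508 to 3749 against 3800 to 4146), in genes with a site and in the median score, and above them in sites in noncoding exons.

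Most positions differed between the groups even where genes were shared. The 3 control libraries together held 6825 distinct mRNA sites and the 3 OGD/R 1.5 h libraries 7066, of which 1855 were in both, or 27.2% of the control sites and 26.3% of the OGD/R 1.5 h sites. Compared pairwise, control libraries had 39.97 to 40.9% of mRNA sites in common, OGD/R 1.5 h libraries 29.8 to 30.6%, and pairs with 1 library of each group 10.3 to 10.7%. Pairs between groups thus lay below both kinds of pairs within groups, and the OGD/R 1.5 h libraries shared less among themselves than the control libraries did. In noncoding exons, pairs between the groups shared 26.5 to 32.5%, against 37.3 to 44.8% in control pairs and 41.1 to 44.9% in OGD/R 1.5 h pairs. Over isolated sites alone, 16.8% of the OGD/R 1.5 h sites were also control sites. Among genes the sharing was larger, with 1229 found in both groups of 1804 in control and 1746 in OGD/R 1.5 h.

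A site was called gained when all 3 OGD/R 1.5 h libraries and no control library listed it, and lost in the reverse case. Of 12036 distinct mRNA sites, 755 were gained (6.27%) and 1222 were lost (10.2%), in 489 and 656 genes. With a score of at least 10 the counts were 232 and 400, and with isolated sites 433 and 463. Both kinds of change met in 244 genes. Atp1b1, the beta subunit of the sodium pump, gained 8 and lost 13 sites, Hnrnpab, an RNA-binding protein, gained 6 and lost 10, and Dgat1, which makes triglycerides, gained 4 and lost 12. These 3 genes, chosen after their values were seen, kept a site in all 6 libraries. Only 106 of the 755 gained sites lay in genes that had no site in control, and 207 of the 1222 lost sites in genes that had no site in OGD/R 1.5 h. Most of the exchange was therefore between positions of genes that carried sites in both groups.

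Gained and lost sites were both concentrated near the start codon. The start codon region, 100 nt on either side of the codon, held 44.1% of the gained and 46.6% of the lost sites, against 28.9% of the 294 sites listed in all 6 libraries. The 3′ UTR held 4.77% of the gained and 3.36% of the lost sites, but 20.7% of those in all 6 libraries. A single gene, Lars2, had 33 positions found in both groups, nearly all in the 3′ UTR. Its weight in the shares of the 294 sites was not measured, so these may not hold for shared sites in general. Lost sites were followed by G more often than gained sites, with CG contexts at 33.6 and 26.1%. CHH contexts, where H is A, C or T, stood at 29.3% of lost and 37.5% of gained sites.

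A gene was called gained when each OGD/R 1.5 h library listed an mRNA site in it and no control library did, and lost in the reverse case. Of 2321 genes with a site in either group, 96 were gained (4.14%) and 169 were lost (7.28%). The counts rest on few sites per gene, since 28 of the gained and 51 of the lost genes had 1 distinct site, and 14 and 13 had at least 5. When a score of at least 10 was required the counts were 61 and 109, and with a site in at least 2 libraries of a group and none of the other they were 225 and 305. Lost genes outnumbered gained genes in all of these settings.

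Sec24a and Rabggtb had the highest mean numbers of sites among the 10 gained genes with most distinct sites. Sec24a, a cargo-binding subunit of the COPII coat that forms vesicles at the endoplasmic reticulum, had 0 sites in the control libraries and 10, 8 and 10 in the OGD/R 1.5 h libraries. Its 15 distinct sites lay on chromosome 11 (gene at chr11:51692263-51756834, − strand), 13 of them in the coding sequence. Kdelr2, a receptor that returns resident proteins from the Golgi to the endoplasmic reticulum, had 6, 2 and 3 sites, of which 5 distinct ones were in the start codon region. Slc44a1, a choline transporter, had 5, 8 and 4, and Abhd2, a serine hydrolase, had 4, 7 and 4. All 4 genes were listed at 0 in each control library, and the scores of their OGD/R 1.5 h sites reached at most 87, 41, 69 and 191. Many of these sites had low scores or close neighbours. The mean of Sec24a was 9.33 sites over all its sites, but 2.67 with a score of at least 10 and 2.67 over isolated sites. In Kdelr2, Slc44a1 and Abhd2 the means under the same limit on score were 2, 0.667 and 1, and those over isolated sites 1.67, 3 and 2.33.

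Tet3, a dioxygenase that oxidises 5-methylcytosine, was gained with 2, 5 and 4 sites, all 9 distinct ones in the coding sequence between positions 83403404 and 83403896 of chromosome 6. Mbnl1, a regulator of alternative splicing, had 1, 7 and 3 sites, and its 8 distinct sites lay in the coding sequence between 60603842 and 60603885 on chromosome 3, with scores of 4 or less. Cpped1, a phosphatase, had 3, 3 and 4 sites, all in the 3′ UTR. Rnf44, a RING finger protein, had 4, 2 and 2, and Gdpd1, a phosphodiesterase of lysophospholipids, had 1, 4 and 2. Without OGD/R 1.5 h replicate 2 the mean was 2 in place of 3.67 in Mbnl1 and 1.5 in place of 2.33 in Gdpd1. With a score of at least 10, Mbnl1, Rnf44 and Gdpd1 had 0 sites in either group, so their gain was one of low-score sites. Most sites of Tet3 and Cpped1 also had low scores, with means of 0.667 in each under that limit in place of 3.67 and 3.33.

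Rabggtb, the beta subunit of the enzyme that attaches geranylgeranyl groups to Rab proteins, stood apart by its scores. It had 0 sites in control and 11 in each OGD/R 1.5 h library, with scores of 784 to 1000. All 11 lay in the 5′ UTR or start codon region between 153912134 and 153912201 on chromosome 3, and 9 of the 11 lie inside Snord45c, a small nucleolar RNA encoded on the same strand there. Reads of the mRNA and of the small RNA cannot be told apart at these positions. Without mRNA sites that also lie in a noncoding exon, Rabggtb had 2 sites per OGD/R 1.5 h library, and over isolated sites it had 0.

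The 10 lost genes with most distinct sites had 5 to 7 of them in control. Atp2a2, the calcium pump of the endoplasmic reticulum, had 4, 5 and 7 sites in the control libraries and 0 in OGD/R 1.5 h. Txn1, the thioredoxin that reduces protein disulfides, went from 4, 6 and 5 sites to 0, and Ube2m, which conjugates Nedd8, from 6, 2 and 4 to 0. In these 3 genes every distinct site lay in the start codon region, apart from 2 sites of Atp2a2 in the 5′ UTR. Cnnm4, a magnesium transport protein, had 5, 3 and 3 control sites, and Zc3h14, which binds poly(A) tails, had 5, 5 and 6, also mostly near the start codon. Txn1 and Zc3h14 had control means of 5 and 5.33 sites, but of 0.333 and 1 over isolated sites, and those of Ube2m and Atp2a2, 4 and 5.33, became 1 and 2.67. Atp2a2 and Cnnm4, the latter with a control mean of 3.67, both had 1.33 when a score of at least 10 was required. Under that limit Txn1 and Zc3h14 had control means of 3 and 1.

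The remaining lost genes of the 10 differed in where their sites lay. Zfp592, a zinc finger protein, had 6, 5 and 3 control sites and Ctcf, which binds insulators, had 2, 4 and 2, all in the coding sequence. Psma4, a subunit of the proteasome core, had 2, 3 and 4, of which 4 distinct sites were in the stop codon region. Fabp1, which binds fatty acids in liver and intestine, had 4 sites in each control library with scores up to 1000, and Scnn1a, the alpha subunit of the epithelial sodium channel, had 4, 4 and 3 in the 5′ UTR. All of these genes were listed at 0 in each OGD/R 1.5 h library. The control means of Scnn1a and Zfp592, 3.67 and 4.67, were both 0.333 over isolated sites, and that of Ctcf, 2.67, was 1.33 over these. With a score of at least 10 the control means of Zfp592 and Ctcf were both 0.333.

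**Figure D2:**
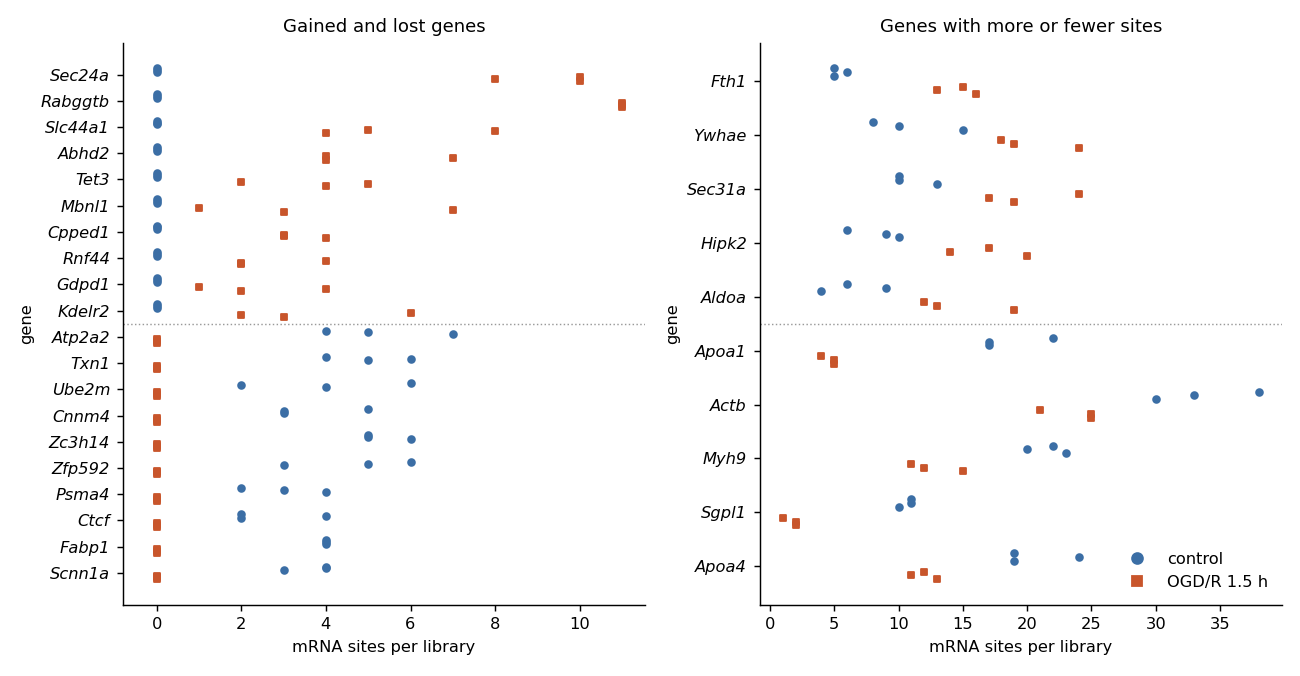
Number of mRNA sites per library (x axis) in the genes with most sites among gained and lost genes (left) and in the genes with the largest rise or fall among those listed in all 6 libraries (right), 1 point per library. Gained genes have 0 sites in all control libraries and lost genes 0 in all OGD/R 1.5 h libraries, and on the right the groups do not overlap, as in Fth1 with 5 to 6 control sites and 13 to 16 OGD/R 1.5 h sites.

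Of 588 genes with a site in all 6 libraries, 62 had more sites in every OGD/R 1.5 h library than in any control library (10.5%) and 110 had fewer (18.7%). Without control replicate 2, 95 genes had more. With a score of at least 10 the counts were 11 and 37. Over isolated sites they were 37 and 21, so that the excess of genes with fewer sites turned into an excess of genes with more.

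The largest rises were in Fth1, Ywhae, Sec31a, Hipk2 and Aldoa. Fth1, the heavy chain of the iron store ferritin, went from 5, 6 and 5 sites to 15, 13 and 16, and 26 of its 31 distinct OGD/R 1.5 h sites lay in the start codon region. Ywhae, a 14-3-3 adapter protein, went from 8, 10 and 15 sites to 18, 19 and 24. Sec31a, the outer COPII coat subunit, went from 10, 10 and 13 to 24, 17 and 19, the latter mostly in the coding sequence. The groups do not overlap in any of these genes. Most of the rise in Fth1 and Sec31a lay in neighbouring sites, since the differences of 9.33 and 9 between the means became 0.333 and 1.33 over isolated sites. The difference in Ywhae, also 9.33, was 1.33 with a score of at least 10, and those in Fth1 and Sec31a were 6.67 and 3.67 under that limit.

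Hipk2, a nuclear kinase, went from 6, 9 and 10 sites to 17, 14 and 20. Aldoa, the muscle form of the glycolytic enzyme aldolase, went from 6, 9 and 4 sites to 12, 13 and 19, the latter all in the coding sequence. The rise in Aldoa consisted of low-score sites, since over sites with a score of at least 10 its mean fell by 0.333. In Hipk2 that mean did not differ, with a difference of 0. The differences of 8.67 in Hipk2 and 8.33 in Aldoa became 1 and 4.33 over isolated sites.

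The largest falls were in Apoa1, Actb, Myh9, Sgpl1 and Apoa4. Apoa1, the main protein of high-density lipoprotein, went from 22, 17 and 17 sites to 4, 5 and 5, and its neighbour Apoa4, an apolipoprotein of chylomicrons, from 19, 24 and 19 to 12, 11 and 13. Apoa1 lost 13 positions listed in all 3 control libraries and gained 2. Myh9, the heavy chain of a nonmuscle myosin, went from 22, 20 and 23 to 11, 12 and 15, and Sgpl1, which degrades sphingosine 1-phosphate, from 11, 11 and 10 to 1, 2 and 2. In Sgpl1, 12 of the 13 distinct control sites lay in the start codon region. The groups do not overlap in these genes. The falls were smaller over isolated sites, with 7 in place of 14 in Apoa1, 5 in place of 8.67 in Apoa4, 4 in place of 9 in Myh9 and 1.33 in place of 9 in Sgpl1.

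Actb, which encodes beta-actin, went from 38, 33 and 30 sites to 21, 25 and 25, and its control sites lay mainly in the 3′ UTR and the stop codon region. Over isolated sites the order was reversed in Actb, with a mean 2.67 sites higher after deprivation, and with a score of at least 10 the fall was 3.33 in place of 10. Reads from processed pseudogenes of Actb and from Actb itself cannot be told apart. Ncor1, a transcriptional corepressor, was the gene with most distinct sites in both groups, with 34, 35 and 38 sites in the control libraries and 31, 37 and 31 in OGD/R 1.5 h. Myo1a, the brush border myosin, and Fat1, a protocadherin, also overlapped between the groups. Lars2, the mitochondrial leucyl-tRNA synthetase, had 33, 34 and 33 control sites and 34, 32 and 33 OGD/R 1.5 h sites. Of its 37 control and 36 OGD/R 1.5 h positions 33 were the same, nearly all in the 3′ UTR.

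Gene lists were compared by their counts beside the shares of all genes. The respiratory chain was the list with the largest rise in sites. Its genes held 48, 50 and 49 sites in the control libraries and 75, 91 and 85 in OGD/R 1.5 h, and all OGD/R 1.5 h libraries exceeded all control libraries also with a score of at least 10, with equal numbers of sites and with isolated sites. Of 46 genes with a site, 2 were gained, Cox6b1 and Ndufs5, and 3 were lost, Atp5mpl, Atp5pb and Uqcr10, beside 4.14 and 7.28% of all genes. Of the 8 listed in all 6 libraries 3 had more sites and 2 had fewer, beside 10.5 and 18.7% of all such genes. Uqcrc1, a core subunit of complex III, went from 1 site in each control library to 4, 5 and 8, and Ndufb8, of complex I, from 1, 0 and 0 to 6, 6 and 7, which meets none of the call rules. Atp5b, the catalytic subunit of ATP synthase, went the other way, from 6, 8 and 8 to 5, 4 and 5.

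Intestinal epithelial genes moved down as a list. Of 30 with a site in either group, Cdx1, an intestinal transcription factor, was gained with 1 site per library, and Fabp1 and Clca1, a secreted protein of goblet cells, were lost, near the 4.14 and 7.28% of all genes. Of 15 listed in all 6 libraries 6 had fewer sites and 0 had more, beside 18.7 and 10.5% of all genes. The 6 were Apoa1, Apoa4, Epcam, Lgals4, Slc5a1 and Cps1. Slc5a1, the sodium-glucose cotransporter, went from 15, 11 and 12 sites to 4, 4 and 8, whereas Fcgbp, a mucus protein, had 12, 13 and 10 in control and 12, 16 and 13 in OGD/R 1.5 h. The total over the list was lower in OGD/R 1.5 h under the same 3 settings as for the respiratory chain.

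Lists of energy and stress genes were small, and with 4.14% of all genes gained and 7.28% lost, few calls could be met in them. In glycolysis, with 6 genes, 0 were gained and 0 lost, and Aldoa, 1 of 3 listed in all 6 libraries, had more sites, beside 10.5% of all such genes. Of 22 hypoxia response genes only 4 carried a site in a group, with 14, 13 and 10 sites in control and 18, 18 and 23 in OGD/R 1.5 h. Of 3 of them listed in all 6 libraries Aldoa had more sites, beside 10.5% of all such genes, and 1 had fewer, beside 18.7%. The latter was Vegfa, a growth factor of vessels, with 5, 3 and 4 against 2, 2 and 2. The rise of the total lay mainly in Aldoa, with 6, 9 and 4 against 12, 13 and 19 sites. With a score of at least 10 the difference in Aldoa was -0.333. Besides Aldoa and Vegfa, the genes of the list with a site overlapped between the groups. Antioxidant genes held 28, 27 and 26 sites in control and 17, 15 and 21 in OGD/R 1.5 h, but overlapped with a score of at least 10 and with isolated sites. Txn1 was the 1 lost of 11 genes, near the share of all genes, and Sod1 and Prdx5 had fewer sites of 6 listed in all 6 libraries, beside 18.7% of all such genes. The apoptosis list had 3, 5 and 6 sites in control and 0, 1 and 0 in OGD/R 1.5 h, with 0 gained and 0 lost of 5 genes. Bak1, which opens the outer mitochondrial membrane, was the member with most sites, with 2 in each control library and 0, 1 and 0 in OGD/R 1.5 h.

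The endoplasmic reticulum list held 48, 56 and 52 sites in control and 40, 46 and 43 in OGD/R 1.5 h, a fall that overlapped per 1000 mRNA sites and turned to a mean 5 sites higher over isolated sites. Of its 13 genes 0 were gained and 1 was lost, beside 4.14 and 7.28% of all genes, and of 5 listed in all 6 libraries 1 had more sites and 0 had fewer, beside 10.5 and 18.7%. In it Calr, a calcium-binding chaperone, went from 1 site in each control library to 3, 4 and 5, and Dnajb11 was lost. Canx, the membrane-bound relative of Calr, had 22, 21 and 21 control sites and 18, 20 and 21 OGD/R 1.5 h sites. The list of cytosolic chaperones, which also holds the mitochondrial Hspa9 and Hspe1, had 0 gained and 0 lost genes of 10. That of tubulins, which also holds Tubgcp2 of the gamma-tubulin complex, had 0 and 0 of 4, and the totals of both lists overlapped. Ndufb8, Fcgbp, Bak1 and Canx, which were not called in any direction, were named after their values were seen.

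Lists of the proteasome, of Rab GTPases and of solute carriers held fewer sites in OGD/R 1.5 h. Proteasome genes held 18 sites in each control library and 11, 10 and 10 in OGD/R 1.5 h, with Psma4, Psma6 and Psmd3 lost, Psmd7 gained and Psmd2 with fewer sites, of 11 genes, 3 of them listed in all 6 libraries. Beside these counts stand 7.28% of all genes lost, 4.14% gained and 18.7% with fewer sites. The list chosen for Rab GTPases held 16, 19 and 17 sites in control and 9, 7 and 5 in OGD/R 1.5 h, with Rab18, Rab19 and Rab21 lost of 15 genes. Its gained member, Rab11fip1, is a Rab-binding protein and not a GTPase, and the list also holds Rab3gap1, a GTPase-activating protein. The list of solute carriers, which also holds Slc9a3r1, a regulator and not a carrier, had 46 genes with 95, 97 and 88 sites against 70, 77 and 76. Of these genes 3 were gained and 6 lost, beside 4.14 and 7.28% of all genes. Among the lost were Slc9a3, an exchanger of sodium and protons, and Slc3a2, a chain of amino acid transporters. Of 15 genes of the list with a site in all 6 libraries, Slc9a3r1 included, 3 had more sites and 5 had fewer, beside 10.5 and 18.7% of all such genes. Slc7a8, one with more sites and a light chain of such transporters, went from 4, 4 and 5 sites to 12, 13 and 7. Over isolated sites the totals of these 3 lists overlapped between the groups, and that of the proteasome had a mean 2.33 sites higher in OGD/R 1.5 h. The proteasome total also overlapped with a score of at least 10, with 8, 10 and 9 against 11, 4 and 5.

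Genes for the actin cytoskeleton held 168, 179 and 168 sites in control and 135, 143 and 157 in OGD/R 1.5 h. Of 36 genes, Actn1, an actin crosslinker, was gained, and Cfl1, which severs filaments, and Myo10 were lost, near the 4.14 and 7.28% of all genes. Of 17 listed in all 6 libraries Actb, Myh9, Pfn1 and Tpm3 had fewer sites and 0 had more, beside 18.7 and 10.5% of all such genes. Over isolated sites and over sites with a score of at least 10 the totals overlapped, and with that score the mean per 1000 mRNA sites was higher by 4.46 in OGD/R 1.5 h. Among 5 genes for 14-3-3 proteins, Ywhae and Ywhaz, the 2 listed in all 6 libraries, had more sites. Ywhah went the other way, from 6 in each control library to 4, 0 and 2. Ywhab had 2, 3 and 1 against 0, 0 and 1, which overlapped, as did the totals of the list. Per 1000 mRNA sites the list was higher in OGD/R 1.5 h without overlap, with 7.70, 6.75 and 8.80 against 4.89, 5.31 and 6.58. In smooth muscle genes Myl9 was lost of 5, and Acta2, 1 of 3 listed in all 6 libraries, went from 4, 3 and 3 sites to 1 in each library.

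Lists of genes that act on RNA differed among themselves, and their counts stand beside 4.14% of all genes gained and 7.28% lost, and 10.5% with more and 18.7% with fewer sites. Translation factors held 54, 55 and 57 sites in control and 61, 60 and 65 in OGD/R 1.5 h, with Eif4a2, a helicase, and Eif5a, an elongation factor, gained and 0 lost of 22 genes. Of 9 listed in all 6 libraries, 1 had more sites and 2 had fewer. Eif6, which keeps ribosomal subunits apart, went from 2, 1 and 1 sites to 3 in each library. Eef2, which moves the ribosome along the mRNA, went from 18, 18 and 19 to 14, 14 and 11, and Eif4a3, a helicase of the exon junction complex, from 3, 2 and 2 to 1 in each library. The totals of the list overlapped with a score of at least 10. Splicing and RNA-binding factors had Hnrnpa0 and Sf3a1 gained and Srsf3 lost of 24 genes. Their totals, 83, 84 and 71 against 94, 83 and 99, overlapped, also with a score of at least 10. They were higher without overlap per 1000 mRNA sites (by 5.41), with equal numbers of sites (70, 70 and 62 against 94, 81 and 91) and over isolated sites (39, 36 and 30 against 54, 55 and 60). Of 8 listed in all 6 libraries 1 had more sites and 1 had fewer. Hnrnpab had fewer sites, with 22, 18 and 17 against 14, 12 and 12. Hnrnpu, which binds nuclear RNA and chromatin, went from 12, 13 and 10 sites to 18, 19 and 20. Cytosolic ribosomal proteins had 1 gained, Rps9, and 3 lost, Rpl23, Rpl4 and Rps28, of 21, with overlapping totals. Of the enzymes and readers of m5C, Tet3 was gained and Ybx1 had 4, 3 and 3 against 4, 2 and 2 sites, while Nsun2 and the other members had 0. Chromatin regulators, 22 genes with Ncor1 as the most listed, had 0 gained, 0 lost and 0 with more or fewer sites.

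**Figure D3:**
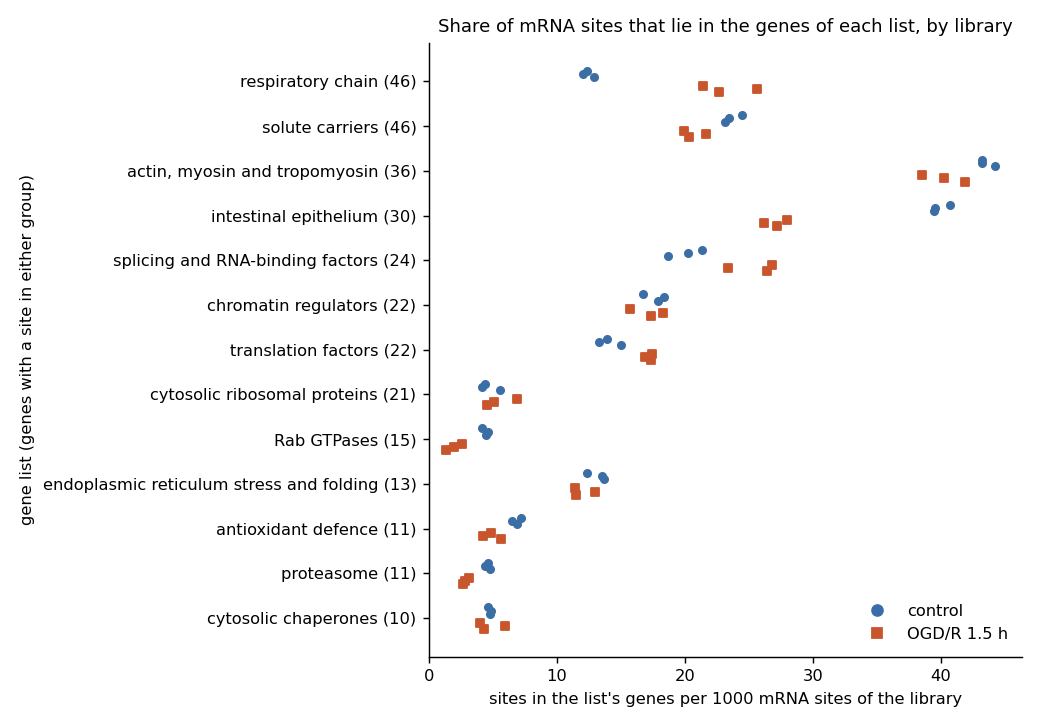
Sites in the genes of each list per 1000 mRNA sites of the library (x axis), 1 point per library, for lists with at least 10 genes with a site. The respiratory chain lies higher in OGD/R 1.5 h (21.4 to 25.6 against 12.1 to 12.9) and the intestinal epithelium lower (26.2 to 27.9 against 39.5 to 40.7), while the chromatin regulators overlap.

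Within mRNA, sites were fewer around the start codon and their share in the coding sequence was larger. The coding sequence held 48.9, 53.5 and 49.6% of mRNA sites in the control libraries and 55.7, 57.6 and 59.8% in OGD/R 1.5 h, a difference of 7.01 percentage points without overlap. The start codon region held 29.5, 25.8 and 28.1% in control and 24.5, 23.4 and 21.3% in OGD/R 1.5 h, a difference of -4.70 points. The 5′ UTR held 9.81 ± 0.746% and 7.00 ± 0.592%, also without overlap. Taken 50 nt to each side, the start codon region differed by -2.61 points, and with a score of at least 10 the coding sequence differed by 4.12 points. The share of the 3′ UTR was 6.86 ± 0.152% and 7.22 ± 0.133%, higher in every OGD/R 1.5 h library, and in the stop codon region the groups overlapped.

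In numbers the change lay at the 5′ end. Sites in the start codon region went from 1148, 1068 and 1067 to 861, 832 and 800, and sites in the 5′ UTR from 397, 371 and 390 to 269, 242 and 245, with log2 ratios of -0.40 and -0.62. Numbers in the coding sequence overlapped, with 1901, 2220 and 1886 in control and 1955, 2049 and 2241 in OGD/R 1.5 h. Their means were 2002 ± 189 and 2082 ± 146, and over the 3 libraries of a group the distinct positions there were 3789 and 4418. Over isolated sites the differences in share shrank to 2.62 points for the coding sequence and -1.38 points for the start codon region.

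Densities were taken over the 2358 transcripts with a site in either group, so that both groups had the same cytosines below the line. In the 100 nt from the start codon on, 9.92, 9.10 and 9.37 of 1000 cytosines were sites in the control libraries and 7.34, 7.43 and 6.81 in OGD/R 1.5 h, the highest density of any window in both groups. In the window from -200 to -101 nt the densities were 4.83 ± 0.0955 and 2.84 ± 0.0459, a log2 ratio of -0.76. All 5 windows from -300 to 199 nt were lower in OGD/R 1.5 h without overlap. Beyond 200 nt the groups overlapped, except for the window from 600 to 699 nt, where OGD/R 1.5 h was higher (2.26 ± 0.0648 against 1.87 ± 0.259).

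**Figure D4:**
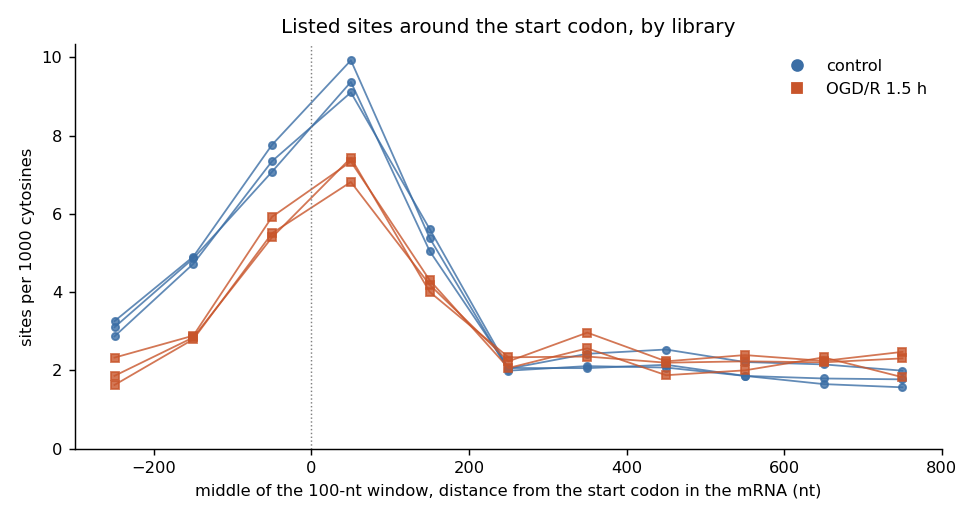
Sites per 1000 cytosines (y axis) in 100-nt windows of the mRNA by distance from the start codon (x axis), 1 line per library. The lines of the OGD/R 1.5 h libraries run below those of the control libraries from -300 to 199 nt and mix with them from 200 to 799 nt, except from 600 to 699 nt, where they run above.

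The sequence context of the sites moved from CG to CHH. Sites followed by G (CG) made up 27.9, 26.9 and 27.3% of mRNA sites in control and 23.0, 21.5 and 21.4% in OGD/R 1.5 h, a difference of -5.39 percentage points. CHH sites made up 32.7, 33.6 and 33.6% in control and 36.8, 38.8 and 38.9% in OGD/R 1.5 h, which was 4.88 points higher, while CHG sites differed by 0.510 points. The groups do not overlap in any of the 3 contexts. By number, CG sites fell from 1085, 1115 and 1037 to 807, 766 and 802, whereas CHH sites overlapped.

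Contexts were also compared within regions. Within the coding sequence the CG share was 22.7 ± 0.275% in control against 18.2 ± 1.09% in OGD/R 1.5 h, and within the start codon region 35.6 ± 0.383% and 31.6 ± 0.414%. The CG share of the 5′ UTR, of the stop codon region and of sites outside mRNA was also lower in all OGD/R 1.5 h libraries, and only in the 3′ UTR did the groups overlap. Restricted to genes with a site in all 6 libraries, a choice made after the data had been seen, the CG share differed by -3.72 points and the CHH share by 3.17 points.

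The bases around the sites were less rich in G. Within 10 nt on either side, G made up 39.2, 38.8 and 38.9% of bases in control and 36.5, 36.1 and 36.1% in OGD/R 1.5 h. At each of the 5 positions after the site G was less frequent in every OGD/R 1.5 h library, with the largest fall besides the adjacent position at position 4, from 43.2 ± 0.172% to 38.4 ± 0.938%. Before the site, G at position -2 fell from 44.9 ± 0.347% to 41.4 ± 0.498%. T was more frequent in OGD/R 1.5 h (16.6 ± 0.197% against 15.2 ± 0.206%), C was also more frequent (21.5 ± 0.278% against 20.5 ± 0.352%), and A overlapped.

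**Figure D5:**
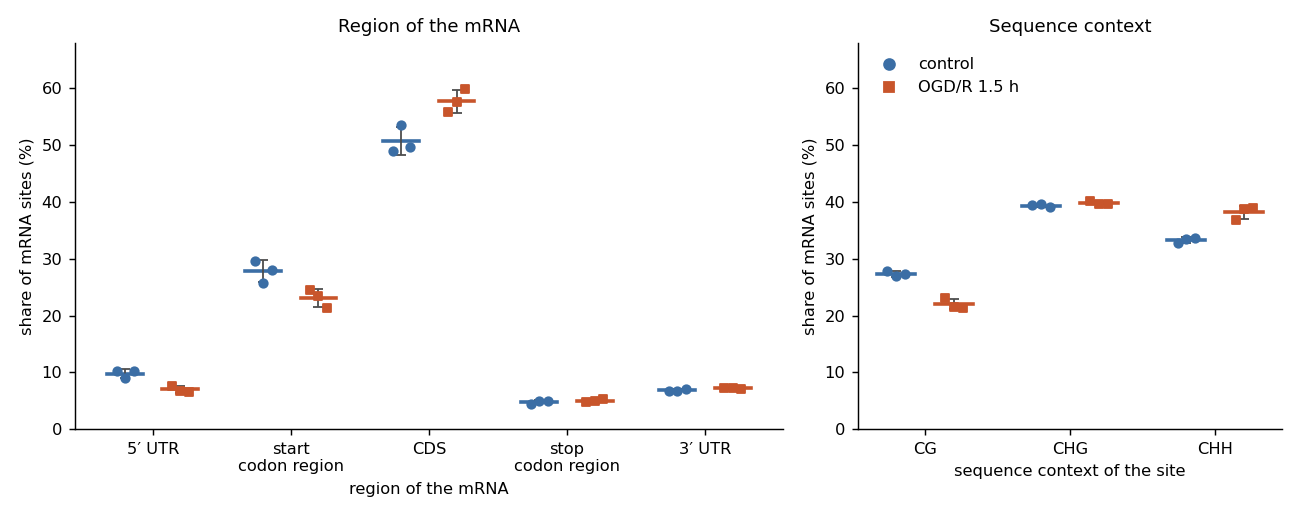
Share of mRNA sites (y axis, percent) by region of the mRNA (left) and by sequence context (right), 1 point per library, with the mean as a bar and 1 SD over 3 libraries as an error bar. OGD/R 1.5 h libraries are higher in the coding sequence (55.7 to 59.8 against 48.9 to 53.5%) and in CHH, and lower in the 5′ UTR, in the start codon region and in CG.

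Scores of mRNA sites were lower after 1.5 h of deprivation. The median score was 9, 10 and 10 in the control libraries and 7 in each OGD/R 1.5 h library, a log2 ratio of -0.47. Sites with a score of 0 made up 8.41, 6.97 and 8.29% of mRNA sites in control and 11.4, 10.9 and 10.2% in OGD/R 1.5 h. Every OGD/R 1.5 h library thus had the lower median and the larger share of 0 scores. With equal numbers of highest-score sites the log2 ratio of medians was -0.68, and over the mRNA sites in all 6 libraries it was -0.21. Over sites with a score of at least 10 it was -0.074, but that limit lies at or above every median compared. The log2 ratio of mean scores was -0.19.

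The drop in score differed by region. In the coding sequence the median went from 8, 7 and 8 to 5 in each library, and in the start codon region it was 5, 7 and 6 in control and 6 in each OGD/R 1.5 h library. Scores were highest towards the 3′ end in both groups. The median in the stop codon region was 51, 54 and 45.5 in control and 36, 38 and 38 in OGD/R 1.5 h, and in the 3′ UTR 63, 63 and 52 against 41, 46 and 44. These groups do not overlap, apart from the start codon region. Medians in the 5′ UTR, of 6, 7 and 7 against 4, 6 and 7, overlapped as well.

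At the 294 mRNA sites listed in all 6 libraries, which lay in 200 genes, scores changed little in the median. The median difference of log2(score + 1) between OGD/R 1.5 h and control was -0.088, with quartiles of -1.01 and 0.60. Scores of the same site differed between control libraries by a median of 0.74 to 0.83 on the log2 scale, between OGD/R 1.5 h libraries by 0.85 to 1.01, and between libraries of different groups by 0.88 to 1.16. The spread between groups thus lay above that of control pairs but overlapped that of OGD/R 1.5 h pairs. At 27 sites (9.18%) all OGD/R 1.5 h scores were above all control scores, and at 40 sites (13.6%) all were below. The first count was 43 without control replicate 2, 41 without control replicate 3 and 41 without OGD/R 1.5 h replicate 1. The second was 64 without OGD/R 1.5 h replicate 1 and 68 without OGD/R 1.5 h replicate 2. With a score of at least 10 there were 14 sites with higher and 27 with lower scores. Equal numbers of sites gave 17 and 39, and isolated sites gave 6 and 8.

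Among the sites with a higher score, that in Upf2, a factor of nonsense-mediated mRNA decay, had scores of 4, 7 and 0 in control and 44, 87 and 87 in OGD/R 1.5 h, a difference of 4.36 on the log2(score + 1) scale. The site in the 5′ UTR of Ggt1, which cleaves glutathione, had 2, 1 and 1 against 23, 27 and 38, and that in the 5′ UTR of Frk, a tyrosine kinase, 2, 2 and 8 against 65, 74 and 28. No library of OGD/R 1.5 h overlapped with control at these sites. In Adh1, an alcohol dehydrogenase, the scores were 11, 2 and 3 against 113, 27 and 38.

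The largest fall was at a site in the coding sequence of Ppp1r12a, the targeting subunit of myosin phosphatase, with scores of 40, 100 and 137 in control and 6, 1 and 1 in OGD/R 1.5 h, which was -4.77 on that scale. In the start codon region of Tbc1d10a, which switches Rab proteins off, the scores were 40, 46 and 32 against 1, 1 and 5. In that of Hypk, a partner of huntingtin, they were 460, 110 and 200 against 17, 26 and 12. Sites in Gnb1, a G protein beta subunit, and Uimc1, which binds ubiquitin chains in DNA repair, fell by 3.30 each on that scale, with scores of 15, 343 and 41 against 11, 3 and 4 in Gnb1 and of 57, 57 and 16 against 3, 0 and 14 in Uimc1. Without control replicate 2 the difference in Gnb1 was -2.06.

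A few positions went from no listing to the score cap. Of the 755 gained sites 10 stood at 1000 in all 3 OGD/R 1.5 h libraries, and of the 1222 lost sites 3 stood at 1000 in all 3 control libraries, and these were named after their values were seen. Gained ones lay in Canx, Calr and Rrbp1, which binds ribosomes to the endoplasmic reticulum, in Tmem38b, an ion channel of that membrane, and 6 times in Rabggtb. The Tmem38b site also lies in a copy of ribosomal RNA, and 5 of the 6 Rabggtb sites in Snord45c. The lost ones lay in Ezr, which links actin to the membrane, in Apoa1 and in Apoa4. In OGD/R 3 h, which shares the control libraries, the sites in Canx, Calr and Rrbp1 were absent from all libraries, those in Rabggtb and Tmem38b were at 1000, those in Apoa1 and Apoa4 were at 1000 as in control, and that in Ezr had 199, 96 and 625.

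Exons of noncoding transcripts had more sites and higher scores in OGD/R 1.5 h, in contrast to mRNA, although fewer noncoding genes were gained than lost. Genes with a site in such an exon are called noncoding here. They include 11 protein-coding genes with sites in noncoding transcripts, 1 of which was lost. Of 358 noncoding genes with a site in either group, 11 were gained (3.07%) and 23 were lost (6.42%), and of 88 listed in all 6 libraries, 16 had more sites (18.2%) and 1 had fewer (1.14%). The median score in noncoding exons was 94, 121 and 124 in control and 192, 193 and 193 in OGD/R 1.5 h, and sites at the cap made up 22.2 ± 2.07% and 32.4 ± 1.20%. The count of genes with more sites was 26 without control replicate 1. That of genes with fewer sites was 3, 3 and 2 without control replicates 1, 2 and 3 and 6 and 3 without OGD/R 1.5 h replicates 2 and 3. Over isolated sites 1 gene had more and 2 had fewer, and with a score of at least 10 the number with fewer was 0.

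Small nucleolar RNAs, which guide the modification of ribosomal RNA, had the largest rise among classes of noncoding genes. Their exons held 463, 519 and 531 sites in control and 712, 755 and 661 in OGD/R 1.5 h. Of 50 such genes listed in all 6 libraries 13 had more sites and 0 had fewer, beside 18.2 and 1.14% of all such noncoding genes. Snord32a went from 6, 4 and 6 sites to 21, 20 and 23 of its 25 cytosines, and Snord12 was gained with 10, 7 and 8 sites, but Snord104 was lost, with 9, 10 and 10 control sites. These 3 were named after their values were seen, as were the genes in the next sentences. Where nearly every cytosine of an RNA is listed, methylation and incomplete conversion cannot be told apart.

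Transfer RNA and some other small RNAs had fewer sites. Transfer RNA genes held 115, 170 and 152 sites in control and 90, 84 and 94 in OGD/R 1.5 h, with 1 gene gained and 6 lost of 39, beside 3.07 and 6.42% of all noncoding genes. Of 11 transfer RNA genes listed in all 6 libraries, however, 1 had more sites and 0 had fewer. Rn7s1 and Rn7s2, near-identical copies of the RNA of the signal recognition particle, had 23, 20 and 25 and 19, 23 and 24 sites in the control libraries and 0 in those of OGD/R 1.5 h, and Gm23971, a small nuclear RNA, went from 16, 19 and 18 to 0. Reads of near-identical copies can be placed at either copy, so values of single copies are uncertain. The groups do not overlap for transfer RNA, for Rn7s1 and Rn7s2 or for Gm23971. All 6 lost transfer RNA genes lay on chromosome 11 or 12, as did Rn7s1, Rn7s2 and Gm23971. All of these also had 0 sites in OGD/R 3 h. By contrast, n-TDgtc9 on chromosome 11 had 5, 5 and 5 sites against 3, 5 and 3. On chromosome 13, n-TVcac9 had 0, 9 and 8 control sites and n-TEttc5 0, 5 and 5, and both had 0 in OGD/R 1.5 h. The part of chromosome position and of single libraries in the fall was not tested.

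The OGD/R 3 h libraries, set against the same controls, are given for the main measures only. They held 4914 ± 308 mRNA sites with a median score of 12 ± 1, above all control libraries, where OGD/R 1.5 h was below. Their CG and CHH shares, 21.0 ± 0.737% and 41.8 ± 1.12%, lay on the same side of control as in OGD/R 1.5 h. Of the 96 genes gained in OGD/R 1.5 h, 28 carried a site in each OGD/R 3 h library and 52 in none, and of the 169 lost genes these numbers were 38 and 109. Markers of erythroid cells and neutrophils, with 0 sites in control and OGD/R 1.5 h, had 31 and 21 sites in each OGD/R 3 h library.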

How the data were processed

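The deposited files list, for each bisulfite library, sites with a score made by the authors with meRanCall. The submitters' processing notes name CASAVA 1.8, cutadapt 1.9.3, STAR and mm10. Read totals were not used, so the depth is unknown, and mock libraries were not analysed here. All 25890 distinct sites of 9 libraries fell on a cytosine. Those in an exon of any of 37880 RefSeq protein-coding transcripts, on the same strand, were taken as mRNA sites. Python 3.11.15, pandas 2.3.3, numpy 2.4.6, scipy 1.17.1 and matplotlib 3.10.9 were used, and the calls were checked on simulated data.

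The members and the 28 gene lists were chosen with earlier results of these data known. Genes named are the 10 gained and 10 lost genes with most distinct sites (ties by total listings, then symbol), the 5 largest rises and falls of genes and of sites listed in all 6 libraries, the 5 genes with most sites per group, and list members, of which 1 gene is not reported here. Alternatives were a score of at least 10, equal numbers of highest-score sites, isolated sites, sites in at least 2 libraries, codon regions of 50 nt, the mean score, and each library left out. Genes with a site in all 6 libraries and the removal of mRNA sites in noncoding exons were added after the data had been seen.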

Additional observations from a re-analysis of the deposited data

Results flagged for a closer look

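The number of mRNA sites per library lay below control in every OGD/R 1.5 h library, with a log2 ratio of -0.13, and above control in every OGD/R 3 h library, with 0.32. The median score did the same, with log2 ratios of -0.47 and 0.31. The difference between the times was not tested in either case, and both comparisons use the same 3 control libraries.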

How the results depend on the processing

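No paired analysis was possible because no result comes from a test, and replicate numbers only name libraries. Depth is unknown, so a site that is not listed gives no upper limit. Each group was treated as 1 sample. Of 201 alternative values for 19 results, 135 differed from the reported value by less than the spread or by less than 1.5 times and 3 changed direction. Of 368 values for 40 single genes and sites, 314 did so and 2 changed direction. Except where fewer sites entered by construction, the cause was not tested.

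With a score of at least 10, the log2 ratio was -0.26 for mRNA sites, -0.15 for genes and -0.074 for the median score. The difference was 4.58 points for sites outside mRNA, 4.12 for the CDS and -6.52 for CG, and 23.0% of OGD/R 1.5 h sites were in control. Genes with more and fewer sites numbered 11 and 37, gained and lost sites 232 and 400, and gained and lost genes 61 and 109. Shared sites with a higher and lower score numbered 14 and 27, and noncoding genes with fewer sites 0. Aldoa reversed to -0.333 sites.

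With equal numbers of highest-score sites, the log2 ratio was -0.0035 for mRNA sites (near 0 by construction), -0.030 for genes and -0.68 for the median score. In this setting 24.6% of sites were shared, and 17 shared sites had a higher and 39 a lower score.

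With isolated sites, mRNA sites (0.051), the share outside mRNA (-3.22 points) and Actb (2.67 sites) reversed. Genes gave -0.019, the CDS 2.62, the start codon region -1.38, CG -4.31 and CHH 3.70 points, and 16.8% of sites were shared. Genes with more and fewer sites numbered 37 and 21, gained and lost sites 433 and 463, noncoding genes with more and fewer sites 1 and 2, and shared sites with a higher and lower score 6 and 8.

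With sites in at least 2 libraries, the values were -0.40 for mRNA sites, 4.73 points outside mRNA, -0.20 for genes and 22.98% shared. Genes in at least 2 libraries of a group and none of the other were 225 gained and 305 lost. A codon region of 50 nt gave -2.61 points, the mean score -0.19 and the sites in all 6 libraries -0.21. Genes with a site in all 6 libraries, chosen after the data had been seen, gave -3.72 points for CG and 3.17 for CHH.

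Leaving out each library gave -0.16 to -0.093 for mRNA sites, -0.11 to -0.068 for genes, -0.51 to -0.44 for the median score, -0.267 (a reversal, without OGD/R 1.5 h replicate 2) to 1.76 points outside mRNA, 5.98 to 8.43 for the CDS, -5.72 to -3.82 for the start codon region, -5.901 to -5.095 for CG and 4.50 to 5.56 for CHH. It gave 21.9 to 27.8% shared, 75 to 95 genes with more and 126 to 146 with fewer sites, 791 to 1060 gained and 1282 to 1568 lost sites, 122 to 144 gained and 200 to 225 lost genes, 36 to 43 higher and 56 to 68 lower shared sites, and 19 to 26 noncoding genes with more and 1 to 6 with fewer sites. Fewer libraries to pass raise these counts by construction.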
